A study of Homo sapiens with 3 samples.

Results

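Leucine removal was compared with complete medium in undifferentiated khES3 cells, an established line of human embryonic stem cells. The comparison used 2 of the 3 arrays of the study, 1 for cells kept 5 hours in complete medium and 1 for cells kept 5 hours in medium without leucine. The remaining array, from cells kept 5 hours without lysine, enters only the level filter and the quantile normalization tried as an alternative, and is printed beside single values, since both deprived arrays are set against the same complete-medium array. The cells had been grown to 80% confluence in human embryonic stem cell medium, and the labels name no genetic change or other agent. Members were all probe sets, other than controls, that the platform annotation gives exactly 1 gene, 41091 of 54675, and they read 19775 genes. With 1 array per condition no difference has a replicate check or a p-value, and every value below compares 2 RNA samples of 1 line.

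Leucine is an essential amino acid, so a cell in leucine-free medium has only what it recycles. Uncharged tRNA activates the kinase GCN2, which phosphorylates eIF2α, lowers translation in general and favours translation of the transcription factor ATF4. ATF4 and its C/EBP and ATF partners bind composite elements in promoters of genes for amino acid synthesis, uptake and tRNA charging. A separate route runs through SESN2 (sestrin 2), a leucine-binding protein, and the GATOR and Rag complexes, which hold back the growth kinase mTORC1 when leucine is low.

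All 8 stem cell markers, among them SOX2, NANOG and LIN28A, lay above the floor described below on all arrays, with summed signals of 210705 in complete and 227195 in leucine-free medium. Of 10 fibroblast and feeder cell markers, 9 lay above the floor in complete and 7 in leucine-free medium, with summed signals of 28558 and 26197. Most of that sum came from COL1A1, a collagen gene (11552 and 13187), and THY1 (12734 and 8348), a surface antigen that stem cells also carry. COL3A1 and DCN, matrix genes of fibroblasts, had signals of 107 and 79.5 in complete medium and were below the floor without leucine. TWIST1 (132 and 269), FBN1 (243 and 330) and POSTN (282 and 366) read higher without leucine. COL1A2 (3312 and 3590) and LUM (65.3 and 69.4) were slightly higher, and PDGFRB was below the floor on both arrays. Trophoblast markers above the floor numbered 1 of 4 and 2 of 4, neural markers 2 of 3 on both arrays, and mesoderm and endoderm markers 5 of 8 and 4 of 8. As a sign of RNA quality, the ratio of 3′ to 5′ probe set signal was 5.44 for ACTB in complete medium and 7.55 without leucine, and 1.08 and 1.23 for GAPDH. The part of these differences in the results below was not tested. In a bulk sample, fewer cells of a kind and less RNA per cell cannot be told apart.

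Differences are given as log2 signal without leucine minus log2 signal in complete medium, where 1 is a 2-fold difference. Signals under a floor, the 40th percentile of each array (54.6 in complete and 56.7 in leucine-free medium), were set to it. Of the genes, 12961 had a probe set at or above the median level, and each was read by its brightest such probe set. The median difference over these genes was 0.01, with 51.7% above 0. Both arrays were above the floor for 12297 genes, of which 327 (2.66%) read 2-fold higher or more without leucine and 176 (1.43%) 2-fold lower or more. Centring each array on its median moved the median of all genes to -0.12, and the counts were then 208 higher and 266 lower, so the share of higher genes among them went from 65.0% to 43.9%. With genes and probe sets chosen by their signal in complete medium alone, in place of the mean over the 3 arrays, the counts were 185 higher and 209 lower, so neither direction can be called the more frequent. At 4-fold the counts in the first setting were 21 higher and 2 lower, and at 8-fold 4 and 0. The level used there includes both deprived arrays, which favours genes high without leucine. These counts were not made with the level from complete medium alone, so they are not read against each other. Where 1 array was at the floor the difference is a bound, which was past 2-fold for a further 166 higher genes (1.28%) and 159 lower ones (1.23%) of the 12961.

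Most of these differences lay among dim genes, where signals vary most. In the dimmest of 4 equal classes of genes by level the SD of the difference was 0.78, and 202 genes were 2-fold higher and 126 lower. In the brightest class the SD was 0.28, the middle 95% of genes ran from -0.46 to 0.62, and 25 genes were 2-fold higher and 1 was lower. The plot of difference against level shows this funnel, with ATF4 targets above it on the bright side. The 6481 genes whose level reached the median are called brighter here, and of these 53 (0.818%) were 2-fold higher and 4 (0.0617%) lower. The level averages 1 complete-medium and 2 deprived arrays, which favours genes that are high without leucine. With the level taken from the complete and leucine-deprived arrays the counts were 45 and 4. With the level from the complete array alone, which in turn favours genes that are low without leucine, they were 30 of 6518 (0.46%) and 11 (0.169%). Several of the highest genes, INHBE among them, count as brighter only through the arrays on which they are high, so the counts of 53 and 4 are not read against each other.

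**Figure D1:**
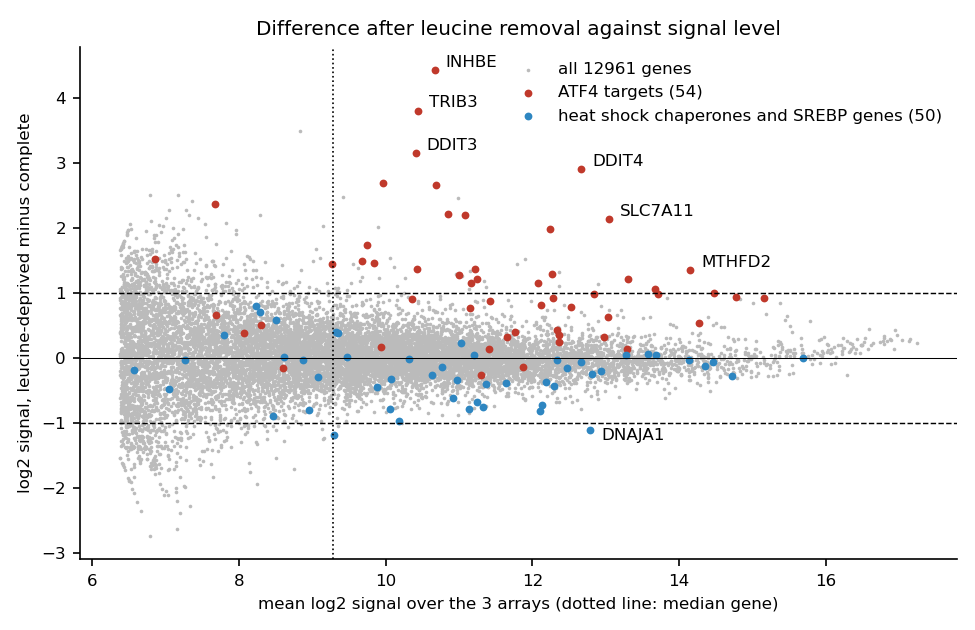
The difference without leucine (log2 signal, leucine-deprived minus complete) is plotted against the mean log2 signal over the 3 arrays for 12961 genes, with 54 ATF4 targets in red and 50 heat shock chaperone and SREBP genes in blue. The vertical dotted line is the median level, the dashed lines are 2-fold, and genes with 1 array at the floor are drawn at their bound. To the right of the dotted line 53 genes lie above the upper dashed line and 4 below the lower.

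Genes with several probe sets give a check on the measurement within the array, though none on the culture. Over 5981 genes with 2 or more kept probe sets the differences read by separate probe sets of a gene had an SD of 0.49 within the gene. Where the brightest probe set of a brighter gene was 2-fold higher, the next one was higher in 29 of 30 genes and itself 2-fold higher in 17, with a median of 1.11. Among dimmer genes it was higher in 45 of 72 and 2-fold higher in 10, and for 2-fold lower dimmer genes it was lower in 24 of 46. Both the brighter genes and the kept probe sets were chosen by the level that favours signals high without leucine. Agreement on the higher side is therefore favoured as well, and it is not read against that on the lower side. Of the 5924 genes with 2 or more kept probe sets and their brightest above the floor on both arrays, 24 (0.405%) had every probe set at least 2-fold higher. They were led by TRIB3, STC2, TSC22D3, ATF3, SLC7A11 and EGR1, and 9 of the 24 are in the ATF4 list described below. That list covers 54 of the 12961 genes, and its share of the 5924 was not counted. It was drawn up with earlier results of these arrays known, so the overlap is not independent evidence. All probe sets were 2-fold lower for 7 genes (0.118%): KRT8P12, SEMA4F, TRIM16L, ALDH3B1, DNAJA1, SH2B1 and C14orf132. Only DNAJA1 of these is a brighter gene.

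**Figure D2:**
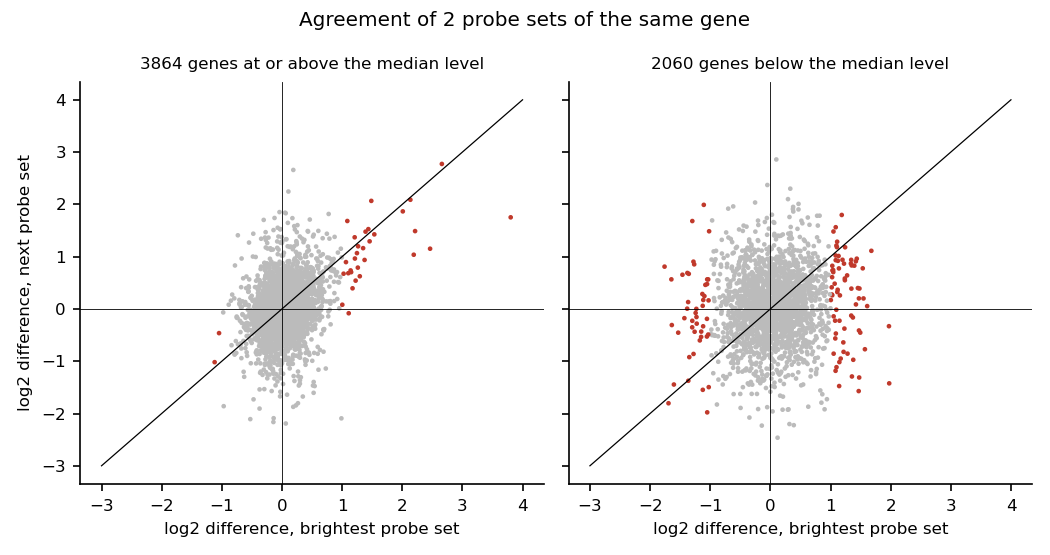
The log2 difference of the next brightest probe set of a gene is plotted against that of its brightest, for 3864 brighter genes (left) and 2060 dimmer genes (right), with genes whose brightest probe set is at least 2-fold different in red and the line of equality in black. On the left 29 of the 30 red points to the right lie above 0. On the right 45 of 72 do, and the red points spread over both signs.

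The gene with the largest difference was INHBE, which encodes the activin βE subunit, a secreted factor of the TGF-β family. Its signal was 188 in complete medium, 4046 without leucine and 5637 without lysine, a difference of 4.42 for leucine. Its 1 kept probe set leaves this value without a check. TRIB3, a pseudokinase that binds AKT and ATF4, read 242, 3376 and 3258 in the same order (3.80, with its other probe set at 1.75). DDIT3, which encodes the transcription factor CHOP, read 319, 2830.5 and 2776 (3.15). For each of these genes both deprived arrays lay far above the complete-medium array, as the plot of the highest genes shows. Both differences use the same complete-medium array, and both deprived arrays enter the level, so the lysine values are no separate check.

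DDIT4, which encodes the mTORC1 inhibitor REDD1, had signals of 1680.4, 12609 and 12819.7 in complete, leucine-free and lysine-free medium (2.91). CHAC1, an enzyme that degrades glutathione, read 299, 1930.3 and 1743 (2.69), and STC2, a secreted glycoprotein, 450.1, 2842 and 3464 (2.66, other probe set 2.77). SLC7A11, the cystine carrier, read 3089, 13567 and 14192 (2.13), and its lowest probe set was at 1.33. These genes were already well above the floor in complete medium. Outside the ATF4 list, TAC1, the precursor of substance P, read 216, 1200.4 and 1241 (2.47), and TSC22D3, a glucocorticoid-induced leucine zipper gene, 647, 3566 and 3578 (2.46, other probe set 1.15). EGR1, an immediate early zinc finger factor, read 400.4, 1612 and 1356, and its 3 probe sets lay between 1.87 and 2.04. G0S2, an inhibitor of fat breakdown, read 98.4, 1109 and 879 (3.49) on 1 dim probe set. VEGFA, the vascular growth factor, which is in the ATF4 list, read 719, 3285 and 4268 (2.19), but its lowest probe set was at 0.04.

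**Figure D3:**
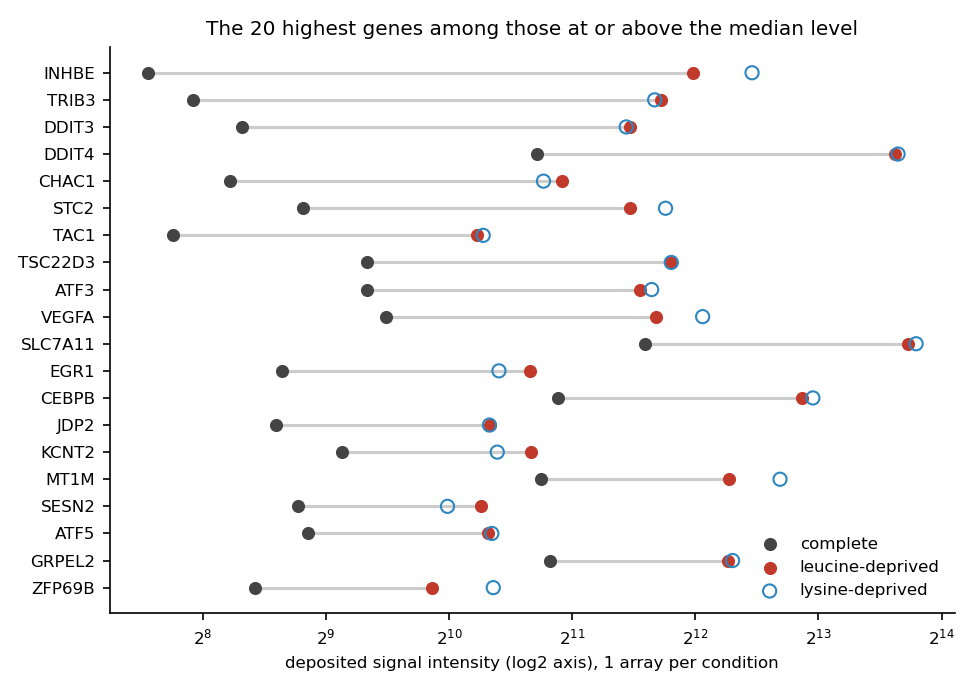
Deposited signal intensity on a log2 axis for the 20 brighter genes with the largest difference, 1 array per condition: complete (black), leucine-deprived (red) and lysine-deprived (open blue). The grey line joins complete and leucine-deprived, and its length is the log2 difference, from 4.42 for INHBE to 1.44 for GRPEL2 and ZFP69B.

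The ATF4 list holds 57 genes described as ATF4 targets or as induced with it, of which 54 were measured. It was drawn up with earlier results of these arrays known, so its direction is not independent evidence. Its median difference was 0.99, against 0.01 for all genes, with 51 members above 0, 25 at least 2-fold higher, 1 higher as a bound and none 2-fold lower. Counts in the ATF4 list and in the later lists stand against 2.66% of all genes 2-fold higher and 1.43% lower. Of the 53 brighter genes that were 2-fold higher, 23 were in this list, which is 23 of its 54 measured members. Members below 0 were MAP1LC3B, an autophagy protein gene (-0.27), KLHL24 (-0.16) and ALDH18A1, a proline synthesis enzyme (-0.14). Brighter genes that were 2-fold higher without being in any of the lists included KCNT2, a potassium channel gene (559, 1622 and 1343 in complete, leucine-free and lysine-free medium, 1.54), and NCOA7, a nuclear receptor coactivator gene (594, 1558 and 1483, 1.39). ZFP69B, a zinc finger gene (344, 930.3 and 1314, 1.44), and RAB39B, a small GTPase gene (381, 988 and 1292, 1.37), belong there too. KCNT2, NCOA7, ZFP69B and RAB39B each have a further probe set, at 1.43, 1.48, 1.53 and 0.94.

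The composite C/EBP-ATF element is the sequence that ATF4 with a C/EBP partner is known to bind, and it was searched for in the promoters. It was spelled TGATGNAAN and looked for on both strands in RefSeq windows of 300 bases, from 250 before to 50 after each start, in build GRCh38.p14. A gene counted as having it where any of its windows did. It was present for 12 of 43 brighter 2-fold higher genes with a window (27.9%), against 160 of 5473 brighter genes (2.92%) and 1215 of all 27305 genes in the table (4.45%). That set was chosen by a level to which the deprived arrays contribute. With the level from the complete array alone the element was present for 7 of 25 such genes (28%) and 153 of 5509 brighter genes (2.78%). By window the shares in the first setting were 12 of 74 (16.2%), 174 of 8000 (2.18%) and 1268 of 35116 (3.61%). Among dimmer 2-fold higher genes the element was present for 10 of 204 (4.90%), and among 2-fold lower genes for 3 of 132 (2.27%). The cyclic AMP element TGACGTCA was present for 1 of 43 brighter higher genes (2.33%) and 4.46% of brighter genes, and the E-box CACGTG for 7 of 43 (16.3%) and 13.8%. Read from the element, the 160 brighter genes with it had a median difference of 0.07 and 12 (7.5%) were 2-fold higher, while of the 5313 without it 31 (0.583%) were. A match is a description and not a site or a cause, and some ATF4 targets are known as such through this element.

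The windows below show the element in its surroundings for genes where it lies upstream of the start. Each runs 5′ to 3′ on the strand of the gene, as 60 bases with the element in capitals. Where the capitals end in CATCA the element reads on the opposite strand. Coordinates are those of the window in GRCh38.p14, and each line gives the number of bases from the start to the element. CHAC1, ATF3, ASNS, CEBPG, AARS1 and HERPUD1 are in the ATF4 list, KCNT2 and C1orf226 are in none.
CHAC1 (chr15:40953235-40953294, plus strand, 210 bases upstream): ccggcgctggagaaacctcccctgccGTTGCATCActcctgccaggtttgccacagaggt
ATF3 (chr1:212565190-212565249, plus strand, 191 bases upstream): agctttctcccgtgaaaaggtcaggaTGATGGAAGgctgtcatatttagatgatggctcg
ASNS (chr7:97872443-97872502, minus strand, 68 bases upstream): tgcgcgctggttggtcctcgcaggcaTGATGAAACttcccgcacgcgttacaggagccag
CEBPG (chr19:33374045-33374104, plus strand, 42 bases upstream): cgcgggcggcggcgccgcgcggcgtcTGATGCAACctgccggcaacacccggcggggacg
AARS1 (chr16:70289661-70289720, minus strand, 188 bases upstream): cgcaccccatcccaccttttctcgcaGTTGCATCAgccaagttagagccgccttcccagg
HERPUD1 (chr16:56931939-56931998, plus strand, 177 bases upstream): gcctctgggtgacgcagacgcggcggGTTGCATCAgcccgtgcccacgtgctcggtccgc
KCNT2 (chr1:196608505-196608564, minus strand, 98 bases upstream): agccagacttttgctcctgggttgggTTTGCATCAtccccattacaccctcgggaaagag
C1orf226 (chr1:162381493-162381552, plus strand, 209 bases upstream): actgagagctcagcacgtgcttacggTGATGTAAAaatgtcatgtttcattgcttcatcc
The difference was 2.69 for CHAC1, 2.21 for ATF3, 1.29 for ASNS, 1.27 for CEBPG and 1.15 each for AARS1 and HERPUD1. It was 1.54 for KCNT2 and 1.07 for C1orf226.

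Where the element lay close to the start, only its 9 bases are given, on the strand on which it reads. Distances run from the start to the first base of the element along the gene. In NCOA7, SLC1A4 and CARS1 the element therefore extends across the start. JDP2, a bZIP repressor gene (386 in complete and 1287 in leucine-free medium, 1.74), has TGATGCAAC 16 bases upstream, at chr14:75428006-75428014. NCOA7 has TGATGCAAT 4 bases upstream, at chr6:125781111-125781119. SLC7A1, the carrier of lysine and arginine (1.21), has TGATGAAAC 7 bases downstream, at chr13:29595673-29595681, and IFRD1, a stress-induced regulator gene (1.09), TGATGAAAT 18 bases downstream, at chr7:112452076-112452084. The 3 probe sets of IFRD1 ran from -0.03 to 1.68. Outside the brighter 2-fold higher genes, SLC1A4, a neutral amino acid carrier (1.44), has TGATGCAAA 8 bases upstream, at chr2:64989391-64989399. GARS1 (0.92), the glycyl-tRNA synthetase gene, has TGATGAAAT 34 bases upstream, at chr7:30594844-30594852, and CARS1 (0.98), that for cysteine, TGATGCAAC 3 bases upstream, at chr11:3057418-3057426.

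FGF21, the gene of a stress-induced metabolic hormone, and FUT1, a fucosyltransferase gene, start on opposite strands, and their windows share 1 element, TGATGCAAT at chr19:48755469-48755477. It lies 55 bases upstream of FGF21 and 119 bases upstream of FUT1. FGF21 was at the floor in complete medium (35.1) and read 156 without leucine, at least 1.52 higher on the log2 scale. FUT1 was 1.53 higher, and both probe sets are dim. INHBE, VEGFA and SLC7A11 had no window to search. TRIB3, DDIT3, DDIT4, STC2, TSC22D3 and EGR1, also among the highest genes, had windows, but none of these held the element.

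The kinases that act on eIF2α and their partners showed no 2-fold difference at the RNA level. Of 20 measured members 11 were above 0, and the median was 0.05. EIF2AK4, which encodes GCN2, read 2255 in complete and 1855 in leucine-free medium (-0.28, other probe set 0.13), GCN1, its activator, 2935 and 2929, and IMPACT, its inhibitor, 964 and 1148 (0.25). EIF2AK3, the ER stress kinase PERK, differed by 0.05 and EIF2AK1, the heme-regulated kinase, by 0.07. Of the phosphatase subunits that reverse the mark, PPP1R15B was 0.39 and PPP1R15A 0.38, where the other probe set of PPP1R15A read 1.86. EIF2S2, the β subunit of eIF2, was at 0.47 (other probe set 0.50).

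Genes of the bZIP family, to which ATF4 and its partners belong, had the third highest median of the lists. It was 0.47 over 34 measured factors (0.26 with a floor at the 60th percentile), with 25 above 0. Of the 34 factors 9 were at least 2-fold higher, against 2.66% of all genes, and 1 was lower, against 1.43%. Without the 6 that are also in the ATF4 list the median was 0.29 over 28, and 3 were higher and 1 lower. CEBPB, a C/EBP partner of ATF4, read 1889.7, 7475 and 7938 in complete, leucine-free and lysine-free medium (1.98). ATF3, a repressor induced by stress, read 646, 2997 and 3204 (2.21, other probe set 1.49), and ATF5, a close relative of ATF4, 464, 1273 and 1303 (1.46, other 1.29). CEBPG, the other C/EBP partner, read 1124, 2703 and 2828 (1.27, other 1.20). ATF4 itself was already bright, at 15422 in complete and 23778 without leucine (0.62). NFE2L1, a regulator of proteasome genes, was 1.14 higher with its lowest probe set at 0.74. BACH2 (1.19) and MAF (1.16, lowest 0.19) were dimmer, and TEF, a PAR-domain factor, read 317 and 150 (-1.08).

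Genes that restrain mTORC1 split between a few large differences and many near 0. Of 21 measured members the median was 0.08, with 3 at least 2-fold higher (2.66% of all genes), 1 higher as a bound (1.28%) and none lower. The 3 were TRIB3, DDIT4 and SESN2, and the bound was PDCD4, a translation inhibitor gene (1.56). SESN2 read 437, 1224 and 1015 in complete, leucine-free and lysine-free medium (1.49, other probe set 2.07), whereas its relatives SESN1 (-0.03) and SESN3 (-0.29, other -0.64) were below 0. EIF4EBP1, the repressor of cap-dependent translation, read 3331 and 6312 (0.92), and its relative EIF4EBP2 differed by 0.08. The tribbles relatives TRIB1 (0.20) and TRIB2 (0.03), the REDD1 relative DDIT4L (-0.57), the mTOR-binding DEPTOR (-0.32) and the TSC complex genes TSC1 (-0.21) and TSC2 (0.03) were not past 2-fold. Without the 4 ATF4 targets the median was 0.03 over 17 members.

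The leucine sensing list, with the GATOR, KICSTOR and Rag complexes and the TFEB family, had a median of 0.06 over 39 measured members, 22 above 0. Besides SESN2, TFEB, the lysosomal transcription factor, was 2-fold higher, from 72.1 to 262 (1.86) on 1 dim probe set. WDR24, a GATOR2 subunit, lay at the floor in complete medium (18.7) and read 152 without leucine, at least 1.48 higher. In complete medium TFEB and WDR24 were below 83.5, the lowest mean signal of a kept gene. Both were therefore kept through the deprived arrays, and their differences are favoured by that choice. The other GATOR2 genes MIOS (0.21), WDR59 (0.00), SEH1L (-0.26) and SEC13 (-0.15) were closer to 0. GATOR1, which switches the Rag GTPases off, had DEPDC5 at 0.68, NPRL3 at 0.31 and NPRL2 at -0.35. Of KICSTOR, which anchors GATOR1, KPTN read 705 and 390.3 (-0.85), ITFG2 782 and 465 (-0.75, lowest -1.34) and KICS2 differed by 0.23. The Rag GTPases ranged from -0.29 (RRAGA) to 0.83 (RRAGB), with RRAGC at 0.56 (3383 and 4991, other probe set 0.33) and RRAGD at 0.02. FLCN, which activates RagC, was 0.38 and its partner FNIP2 0.56 (lowest -0.09). Of the kinase complex, MTOR differed by -0.25, RPTOR by -0.32 and MLST8 by 0.29. The plot of leucine genes shows that few of these go past 2-fold and that probe sets of a gene often disagree.

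**Figure D4:**
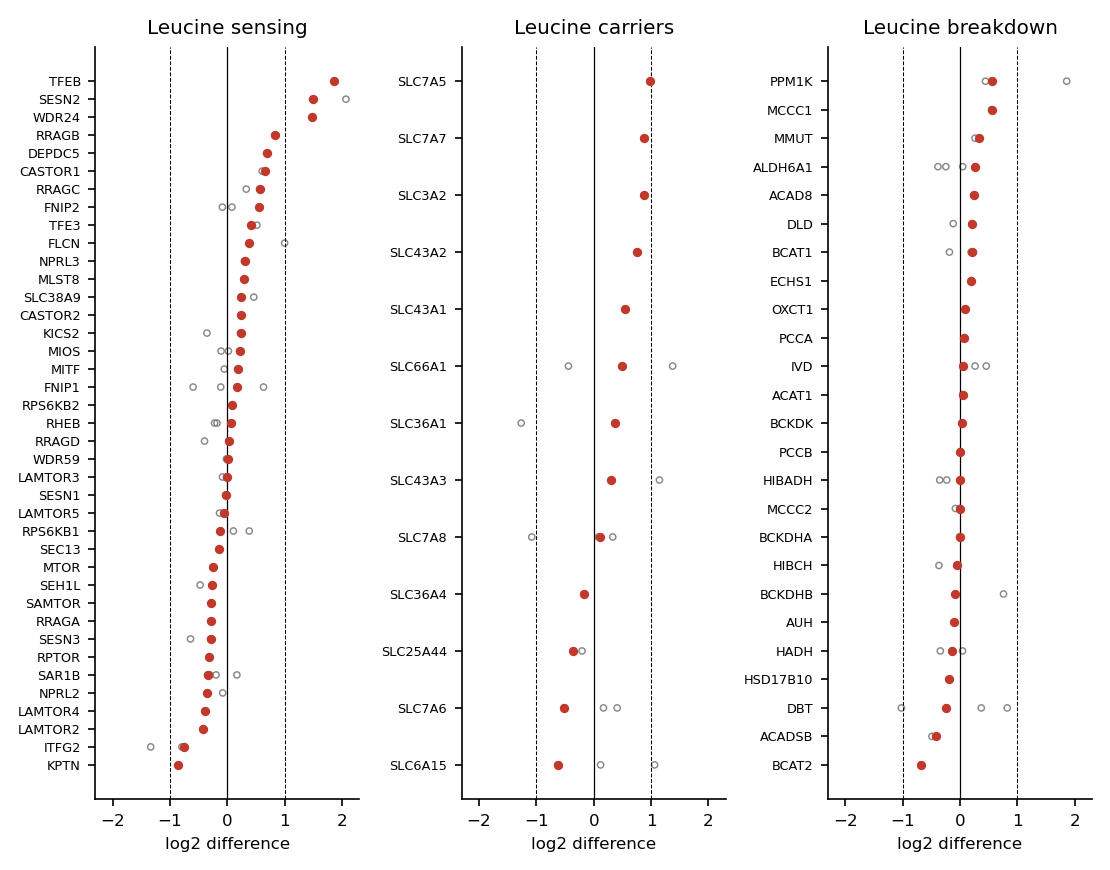
The log2 difference without leucine is shown for every measured gene of the leucine sensing (39), leucine carrier (13) and leucine breakdown (25) lists, with the brightest kept probe set in red and the other kept probe sets as open circles. Dashed lines mark 2-fold. TFEB, SESN2 and WDR24, the last as a bound, lie past it, and no red point of the carriers or of breakdown does.

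Genes that carry leucine had a median of 0.37 and those that break it down 0.03. The first was 0.24 after median centring, 0.19 with a floor at the 60th percentile and 0.10 without probe sets shared between transcripts or cross-hybridising. Of 13 measured leucine carriers and partners 9 were above 0 and none was 2-fold different. SLC7A5, the light chain of the main leucine exchanger LAT1, read 4789.7, 9444 and 8823 in complete, leucine-free and lysine-free medium (0.98). SLC3A2, the heavy chain that it pairs with, read 1854, 3406 and 3307 (0.88). SLC7A7, which shares this heavy chain, read 218 and 400.0 (0.88), SLC43A2 0.75 and SLC43A1, a further leucine facilitator, 0.54. SLC6A15 (-0.63) and SLC7A6 (-0.51) had other probe sets on the other side of 0, and SLC25A44, the mitochondrial carrier of branched-chain amino acids, was at -0.36 (other -0.20). Of 25 measured enzymes of leucine, isoleucine and valine breakdown 14 were above 0 and none was 2-fold different. BCAT1, the cytosolic aminotransferase, read 14075 and 16230.1 (0.21), BCAT2, its mitochondrial form, 373 and 233 (-0.68), and BCKDHA, of the committed step, 557 and 554 (-0.01). MCCC1, of the leucine-specific branch, was at 0.55, with its partner MCCC2 at -0.01.

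Aminoacyl-tRNA synthetases charge each tRNA with its amino acid. The cytosolic median was 0.39 over 19 measured genes, 16 above 0, and AARS1, for alanine, was the one gene past 2-fold (2826, 6263 and 4556 in complete, leucine-free and lysine-free medium, 1.15). Without the 7 in the ATF4 list the median was 0.17 over 12. LARS1, which charges the leucine tRNA, read 5103, 6512 and 5702 (0.35), but its 4 probe sets ran from -0.41 to 0.46. KARS1, for lysine, differed by 0.09. YARS1, for tyrosine, was at 0.80 (other probe set 0.82), and AIMP1, a scaffold of the synthetase complex, was lower, at -0.59. The mitochondrial median was 0.04 over 15 genes, with none 2-fold different, from WARS2 at 0.37 to VARS2 at -0.34.

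Carriers of other amino acids had a median of 0.18 over 25 measured genes, with 3 at least 2-fold higher (2.66% of all genes) and 2 lower (1.43%). Those higher were SLC7A11, SLC1A4 (321 and 868, lowest probe set 0.12) and SLC7A1 (5885 and 13640.5, lowest 0.96). SLC38A2, the adaptive system A carrier, read 15055 and 30001 (0.99) on a bright probe set. SLC38A4 (157 to 59.1, -1.41) and SLC38A5 (223 to 94.9, -1.23) were lower, each on 1 dim probe set. Without the 5 ATF4 targets the median was 0.03 over 20.

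Of the serine, glycine and one-carbon list 16 genes were measured, with a median of 0.07, 3 higher (2.66% of all genes) and 1 lower (1.43%). Without the ATF4 targets 5 of 10 were above 0, none was higher and 1 was lower. MTHFD2, a mitochondrial folate dehydrogenase, read 9581, 24410.2 and 25473 in complete, leucine-free and lysine-free medium (1.35, other probe set 1.16), and SHMT2, which splits serine into glycine, 8302, 17357 and 15299 (1.06, lowest 0.90). ALDH1L2 (70.3 and 361, 2.36) was dim and was kept through the deprived arrays. Its cytosolic relative ALDH1L1 was at -1.02, with its other probe set at 1.49. PSAT1, of serine synthesis, was at 0.93 (other 1.08) and TYMS, thymidylate synthase, at -0.36.

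The asparagine, glutamine, proline and alanine list had a median of 0.14 over 17 measured genes, 5 of them at least 2-fold higher (2.66% of all genes) and none lower. Without the 4 ATF4 targets the median was -0.11 over 13, with 6 above 0 and 3 higher. ASNS, asparagine synthetase, read 2672, 6551 and 6875 in complete, leucine-free and lysine-free medium (1.29). ASS1, of arginine synthesis, read 2879.7, 7221 and 6949 (1.33), and PCK2, mitochondrial PEP carboxykinase, 1262, 3253 and 3304 (1.37). PRODH, the proline-degrading enzyme, was at 1.22, and NAGS, which makes the activator of the urea cycle, at 1.11 on a dim probe set. In the transsulfuration, glutathione and NRF2 list the median was 0.08 over 26, with CHAC1, SLC7A11, HMOX1, heme oxygenase (1340.1, 3393 and 2589.8, 1.34), and CTH, which makes cysteine (1346, 3111 and 3460.1, 1.21, other probe set 1.37), 2-fold higher. MAT2A, which makes S-adenosylmethionine, was lower, at -0.38 (other probe set -0.36).

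Metallothioneins, which bind zinc and copper, and zinc carriers had a median of 0.64 over 16 measured genes, 12 above 0. MT1M read 1723, 4946 and 6597 in complete, leucine-free and lysine-free medium (1.52) and was the one member past 2-fold. MT1G (0.90), MT1F (0.85) and MT1E (0.84) followed, and MT2A was at 0.65. The zinc exporter SLC30A1 was at 0.63 (lowest probe set 0.40) and the importer SLC39A14 at 0.66. Metallothionein genes are near-identical copies whose probe sets can share signal, so the members are not separate measurements.

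Of 45 measured genes for secreted growth factors, hormones and cytokines, 40 were above the floor on both arrays and 5 of these were at least 2-fold higher and none lower, against 2.66% and 1.43% of all genes. A further 3 of the 45 were higher as bounds, against 1.28%, and the median was 0.09. Without the ATF4 targets 2 of 40 measured genes were higher and the median was 0.03. Besides INHBE, STC2, TAC1 and VEGFA, LIF, a cytokine of the IL-6 family, read 174 and 374 (1.11). CXCL8, the neutrophil chemokine, was at the floor in complete medium (47.6) and read 170 without leucine, at least 1.64 higher. IL11 (43.0 and 127) was at least 1.22 higher. GDF15, a stress-induced cytokine, was at 0.77 and CCN2, a matrix growth factor, at 0.83. Of the activin and NODAL family apart from INHBE, INHBC was at 0.69 with its other probe set at -0.82, INHBA at -0.32 and GDF3, a NODAL-like factor of undifferentiated cells, at -0.62 (6075 and 3949).

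Cytosolic heat shock chaperones fold client proteins and are driven by HSF1. Of the 4 brighter genes that were 2-fold lower, HSPA2, an HSP70 gene (1166, 513 and 419 in complete, leucine-free and lysine-free medium, -1.19), and DNAJA1, an HSP40 co-chaperone gene (12912, 5943 and 4575, -1.12, other probe set -1.02), belong to this list. The others were VPS54, a Golgi tethering gene, at -1.05 with another probe set at 0.01, and RWDD3, a sumoylation factor gene, with signals of 1398 and 698. Over 28 measured chaperone genes 2 were 2-fold lower (1.43% of all genes) and the median was -0.05, with 19 below 0 and a lower quartile of -0.40. DNAJB1 read 1961 and 1002 (-0.97, other probe set -1.86), HSPH1, an HSP110 gene, 6162 and 3710.1 (-0.73, lowest -0.75) and STIP1, which links HSP70 to HSP90, 3312 and 2065 (-0.68, other 0.03). HSF1 itself was at 0.39.

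Cholesterol synthesis and SREBP genes had the lowest median of the lists, -0.32 over 22 measured genes, 17 of them below 0 and none 2-fold different. INSIG1, the sterol-responsive retention factor, read 549 and 295 (-0.90), and its 3 probe sets lay between -0.90 and -0.83. MSMO1, a sterol oxidase, read 6994 and 3953 (-0.82), HMGCS1, at the entry of the pathway, 3413 and 1978 (-0.79, other probe set -0.86) and NSDHL 1532 and 888 (-0.79, other -0.87). SREBF2, the transcription factor of this pathway, was at -0.80 with another probe set at 0.12. TM7SF2 was higher, at 0.79 on a dim probe set.

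In several groups of housekeeping genes most members shared a sign at small differences. For comparison 51.7% of all genes were above 0, and 45.6% of the brightest class, whose median was -0.02. After median centring 36.9% of all genes were. Of 73 measured mitochondrial ribosomal protein genes 58 were below 0, with a median of -0.16 (-0.13 after quantile normalization), led by MRPL2 (-0.75), MRPL17 (-0.65) and MRPS17 (-0.59). Of 66 nuclear-encoded respiratory chain genes 52 were below 0, with a median of -0.08, led by NDUFA2, a complex I subunit (8884 and 5152, -0.79). Of 38 proteasome subunit genes 29 were below 0, with a median of -0.14, led by PSME3 (-0.62, with its highest probe set at -0.04) and PSMC1 (-0.40). In each of these 3 lists none was 2-fold different.

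Cytosolic ribosomal protein genes lay on the other side, with 50 of 52 measured members above 0 and a median of 0.16. After quantile normalization that median was 0.02, after median centring 0.03 and without shared or cross-hybridising probe sets 0.08. Its size thus depends on the processing, and the count of 50 above 0 holds for the first setting only. RPL10A was at 0.44 (other probe set 0.08), RPL41 at 0.35 and RPS3 at 0.32. Near-identical copies and pseudogenes of ribosomal protein genes can share probe sets. Translation factors had a median of -0.05 over 34, with EIF1, which selects start codons, at 0.57 (lowest probe set -0.17) and EIF4E, which binds the cap, at -0.49 (highest 0.15). Ribosome biogenesis genes had a median of -0.06 over 43, led by POLR1C (-0.70, other -0.23) and BYSL (-0.61).

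Of 24 measured purine and pyrimidine genes 17 were below 0, with a median of -0.15, and CAD, which starts pyrimidine synthesis, read 1531 and 1037 (-0.56). TK1, thymidine kinase, was at -0.75 (other probe set -0.17) and PRPS2, which makes the ribose precursor, at -0.54 (other -0.57). Of 18 polyamine genes 12 were below 0, with a median of -0.16 that was 0.025 without shared or cross-hybridising probe sets, so no direction is given for them. AMD1, S-adenosylmethionine decarboxylase, read 7803 and 5475 (-0.51, other -0.61) and SRM, spermidine synthase, -0.36, whereas SMOX, spermine oxidase, was at 0.87.

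The G2/M and spindle list had a median of -0.21 over 41 measured genes, 30 below 0 and none 2-fold different, with CDK1, the mitotic kinase, at 7267 and 4506 (-0.69, highest probe set -0.45), KIF23 at -0.59 and PRC1, the spindle midzone protein, at -0.58. The G1/S and replication list had a median of -0.13 over 44, 28 below 0, with PCNA, the replication clamp, at 19346 and 12609 (-0.62). Its one member past 2-fold was E2F1, the G1/S transcription factor, which was dim (330 and 134, -1.30, other probe set -0.23). CDK6 (0.86, lowest 0.01) and CDT1 (0.95, other 0.01) lay above 0.

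Genes of the undifferentiated state had a median of -0.01 over 33 measured members, 16 above 0 and none 2-fold different. ZFP42 (REX1) was at -0.38 (highest probe set -0.02) and EPCAM at -0.30. DNA methylation and TET enzymes had a median of 0.07 over 15, with TET3, which oxidises methylcytosine, at 0.97 (644 and 1261, other probe set 0.61) and DNMT3B, the de novo methyltransferase of these cells, at -0.26 (50711 and 42450). In the Polycomb and histone demethylase list BCOR, a subunit of a Polycomb repressive complex, read 403 and 894 (1.15). Its next brightest probe set was at 0.70 and its lowest at 0.02. KDM6B (1.07, lowest -0.07) and BCORL1 (-1.27, highest 0.85) each had a probe set on the other side of 0.

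In the BMP and ID list the median was 0.26 over 22 measured genes. It was 0.13 after median centring, 0.12 with the level from the complete array alone and 0.08 with the mean of probe sets. At least 2-fold higher were 3 members (2.66% of all genes), and 2 were lower as bounds (1.23%). ID4, an inhibitor of differentiation, read 457, 1084 and 1119 in complete, leucine-free and lysine-free medium (1.25), and its 5 probe sets ran from 0.25 to 1.25. BMP2 was at the floor without leucine, a bound of -1.68 from a signal of 182. The NODAL, activin and TGF-β list had a median of 0.12 over 27 and the WNT list 0.10 over 29, and JAG1, a NOTCH ligand, was at 0.81 (3741 and 6536, lowest probe set 0.30) in a NOTCH list with a median of 0.06. Of 54 lists, 24 had medians between -0.02 and 0.12 that changed sign under a scaling alternative, and 29 changed sign under at least 1 of all the alternatives run. Relative to the median of all genes 2 did, those of fibroblast and of germ layer markers.

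The MondoA, immediate early and ER lists each held 2 genes that were 2-fold higher. Among MondoA, FOXO and glucocorticoid-responsive genes (median 0.25 over 25) TXNIP, which binds thioredoxin, read 1253, 3004 and 2469.7 in complete, leucine-free and lysine-free medium (1.26, lowest probe set 0.79). It was 2-fold higher with TSC22D3, and FOXO3 was at 0.89 with all 4 probe sets between 0.69 and 0.95. IRS2, an insulin receptor substrate, was at 0.78 (other 0.98). Among immediate early genes (median 0.12 over 25) EGR1 and EGR3, its relative (131 and 282, 1.11), were 2-fold higher, MYC was at 0.89 and KLF10 at 0.78. In the ER chaperone and unfolded protein response list (median 0.02 over 35) HERPUD1 (1381, 3055 and 2898, 1.15) and EDEM1 (1.16), both of ER-associated degradation, were 2-fold higher, and HERPUD1 is in the ATF4 list. These counts stand against 2.66% of all genes. The chaperone cofactors SDF2L1 (-0.76) and MANF (-0.62) were lower. GRPEL2, a mitochondrial HSP70 exchange factor, read 1805, 4911 and 5051 (1.44), while its relative GRPEL1 was at -0.45.

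Among circadian genes BMAL1, a core clock activator, read 162 and 450.4 (1.47, other probe set -0.41), and PER3 (440.3 and 215, -1.03) was lower with TEF. Among BCL2 family genes HRK, a pro-death member, was at 1.34 with all 4 probe sets between 0.94 and 1.71, on dim signals (169 and 428). PMAIP1 (NOXA) was at 0.92 (other 0.70). Of 7 snoRNA host genes EPB41L4A-AS1 read 2919.9 and 6272 (1.10, other 0.68). The p53 target list had a median of 0.02 over 24, with SESN2 as its one member past 2-fold and CDKN1A, the cell cycle inhibitor, at 0.54.

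**Figure D5:**
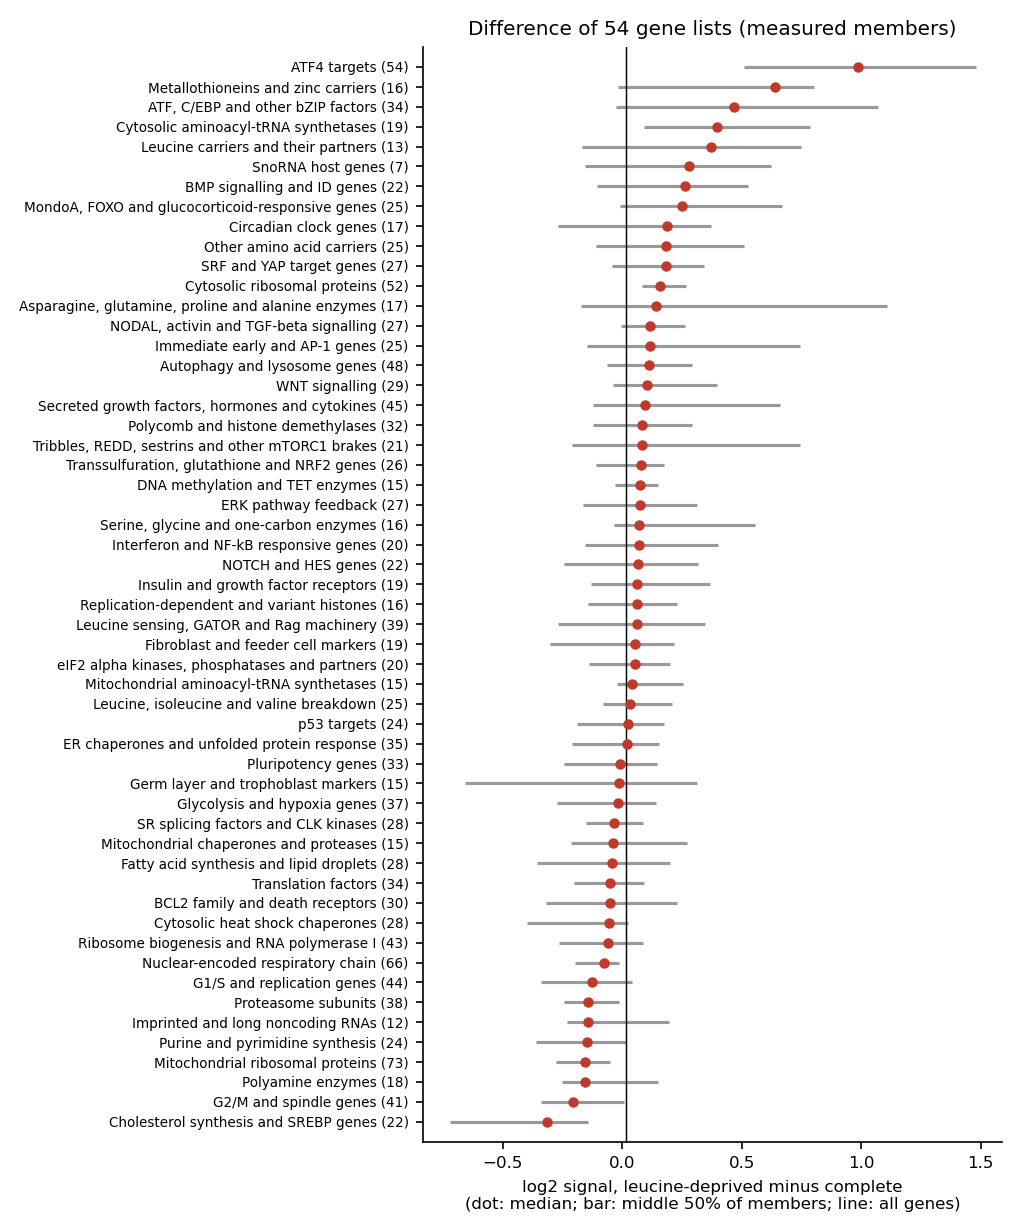
The median log2 difference without leucine (red dot) and the middle 50% of measured members (grey bar) are shown for 54 gene lists, ordered by median, with the number of measured members in brackets. The vertical line is the median of all genes, 0.01. The ATF4 list stands at the top with 0.99 and the cholesterol and SREBP list at the bottom with -0.32.

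The pair of genes with the largest and the third largest difference among brighter genes, INHBE and DDIT3, lie 4 protein-coding genes apart on chromosome 12. This was looked for after their values were seen. Between them GLI1, a hedgehog transcription factor gene, differed by 0.11 and ARHGAP9 by 0.44, and MARS1 had no kept probe set. INHBC, the next gene on the other side of INHBE, was at 0.69 and R3HDM2 at -0.02. Next to STC2, NKX2-5 was at 1.40 on a dim probe set (76.7 and 202) that was kept through the deprived arrays.

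Genes at the floor in complete medium give bounds only, and were kept through the deprived arrays. The largest were LINC01278 (50.3 and 311, at least 2.51 higher), THEM6 (at least 2.50) and S100P (8.22 and 290.4, at least 2.41). On the lower side FGD2, NGEF and ARHGEF11 were at the floor without leucine, with bounds of -2.74, -2.64 and -2.38, and the other probe set of FGD2 was at 0.42. S100P had a signal of 276 without lysine and THEM6 177, whereas NGEF had 145 and FGD2 23.5. All but FGD2 rest on 1 kept probe set.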

How the data were processed

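RNA from khES3 cells was labelled by 3′ in vitro transcription and hybridised to 1 Affymetrix array per condition. The authors deposited linear signal intensity for each probe set, and the submitters' processing notes name MAS5, whose version is not given in the sources used here. The 2% trimmed mean was 500.1 on each array, so they had been scaled to a common mean, which removes differences in total mRNA. Signals were floored at the 40th percentile of non-control probe sets and taken to log2. Probe sets at or above the 50th percentile of the mean over the 3 arrays were kept (23055), with r = 0.966 between the 2 arrays, and a gene took its brightest. A 2-fold difference required signal above the floor on both arrays. No test was possible, and the number of arrays limits the precision. Leucine content of encoded proteins was not analysed here.

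The members, the 54 gene lists and their tests were chosen with earlier results of these data known. Of 1686 list genes 1419 were measured. The genes named were, by rule, the 30 highest and 20 lowest with 2 or more probe sets that all differ the same way, the 20 highest and 20 lowest brighter genes, up to 5 members per list, all members of the leucine lists, up to 6 bounds per direction and chromosome neighbours of the highest genes. Further members were named for their role or chosen after their values were seen. Promoters were RefSeq windows of GRCh38.p14. Alternatives were 2 scalings, other floors and level filters, the mean of probe sets and leaving out shared or cross-hybridising ones; a level from the complete array alone and those for brighter genes, the promoter element and probe set agreement were chosen after seeing the data. The floor, level filter and differences per gene were tested on simulated data with known folds on the leucine array and none on the lysine array. That setting does not show how the filter favours genes high on both deprived arrays. The promoter search, list medians and probe set agreement were not tested in this way. Python 3.11.15, numpy 2.4.6, pandas 2.3.3 and matplotlib 3.10.9 were used.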

Additional observations from a re-analysis of the deposited data

How the results depend on the processing

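No paired analysis was possible because each condition had 1 array, and for the same reason no replicate could be left out. Centring on the array median gave 208 genes 2-fold higher, 266 lower and 10 brighter genes lower, a probe set agreement of 100% and a median of 0.86 for ATF4 targets; it moved the median of all genes from 0.01 to -0.12. A floor at the 20th percentile gave 532 higher and 333 lower genes, a floor at the 60th 121 and 43, and a level at or above the 70th percentile 101 and 35, since fewer or more dim genes then count. Brighter lower genes numbered 2 with log2(value + 32) in place of a floor. Without probe sets shared between transcripts or cross-hybridising they numbered 2, and the ATF4 median was 1.15. The cause of the other moves was not tested. With the level from the complete array alone, chosen after seeing the data, 185 genes were higher and 209 lower, and brighter genes 30 higher and 11 lower. Brighter higher genes numbered between 30 and 53 under the alternatives run, and the share of them with the promoter element was between 27.9% and 34.5%. Of 413 named genes, changes of sign were counted only for those at least 2-fold different in the first setting, bounds included. Changes of sign among smaller differences were not counted. Those that changed sign numbered 8: FGD2 (0.42 with the 20th percentile floor and without shared probe sets, 0.30 with log2(value + 32)), ALDH3B1, LEPR and MEG3 (0.036 each, with the 60th percentile floor, which is its value for genes at the floor on both arrays), DUSP8 (-0.86 with the level from 2 arrays or from the complete array alone), GPSM3 (-0.76 with the latter), ALDH1L1 (0.23 as a mean of probe sets) and VPS54 (0.013 without shared probe sets). The planned leucine content of encoded proteins was not run.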

Other observations

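Probe sets outside the 41091 with 1 gene name carried differences as well. The counts here required signal above the floor on both arrays, without the level filter. Of 3212 such unnamed probe sets, 113 read 2-fold higher or more without leucine and 126 read 2-fold lower or more. Of 1096 that name several genes, 21 were higher and 24 lower. For the 23031 singly named probe sets these numbers were 639 and 445.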
